A study of Homo sapiens with 21 samples.

Results

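The CRT34 line, taken off its inhibitors, was compared with parental A375 cells by RNA sequencing of messenger RNA. A375 is an established line of human melanoma cells in which the kinase BRAF carries an activating mutation. CRT34 is 1 line derived from an A375 tumor that grew in a mouse despite treatment against BRAF and MEK together. In culture it is kept with 1 µM PLX4720, which blocks BRAF, and 35 nM PD0325901, which blocks MEK. The comparison used 6 of the 21 libraries of the series, chosen by their labels: 3 libraries of CRT34 cells in DMSO, the solvent of the inhibitors, and 3 libraries of untreated parental cells. How long the CRT34 cells had been in DMSO is not given in the sources used here. A further 4 groups of 3 libraries each served to place the values. They were CRT34 cells with both inhibitors (CRT34 Combo), a second tolerant line of the same origin in DMSO (CRT35 DMSO), and the A375 clones gSOX10 #2 and gSOX10 #4, in which SOX10 was knocked out by CRISPR/Cas9 with different guide RNAs. CRT35 Combo, the seventh group, took part in estimating the spread between libraries. CRT34 cells had been through a mouse, had been selected under inhibitors and had then been moved to DMSO, whereas the parental cells had not. A vehicle-treated tumor line is not analysed here, so the effects of the host and of the selection cannot be told apart. CRT34 cells kept on the inhibitors are set beside those in DMSO further on.

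SOX10 is a transcription factor that specifies neural crest cells and maintains the melanocyte and Schwann cell lineages. Melanoma cells that lose it often take on a mesenchymal, slowly dividing state with raised adhesion and matrix genes. BRAF and MEK lie upstream of the ERK kinases, whose output includes feedback inhibitors such as DUSP6 and the Sprouty proteins, and these genes fall when the pathway is blocked. NF-kappaB factors sit in the cytoplasm bound to inhibitor proteins and, once released, switch on cytokines, adhesion molecules and their own inhibitors.

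Levels are normalized expression values, that is gene counts which the authors scaled by library size, so they compare a gene between libraries but are not corrected for gene length. Changes are differences of log2(value + 1) with the standard error (SE) and adjusted p of limma, over the 19290 genes that reached 10 in 3 or more libraries. A gene was called, and is said to have risen or fallen, when its adjusted p was no more than 0.05 and it changed by 2 times or more. Where a group's mean was under 10, the levels and the adjusted p are given with no change, because that figure would depend on the added 1. Groups have n = 3 libraries. Where groups are said not to overlap, this describes the values printed there, and the share of all genes without overlap is not given. Nothing in the labels ties the replicates to separate cultures, so the p-values measure the spread between these samples, which may be technical.

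Approximate depth, estimated from the spacing of low values, was 64.2 to 76.2 M reads in the parental libraries and 53.4 to 67.0 M in CRT34 DMSO. Across genes, which are not independent replicates, parental libraries correlated at r = 0.985 to 0.988, and CRT34 DMSO libraries correlated with parental ones at 0.907 to 0.913. CRT34 DMSO replicate 1 stood apart from its group. It correlated with replicates 2 and 3 at 0.968 and 0.973, against 0.985 between those. Of 13040 genes with a mean of at least 100, it was at least 2 times above both other replicates in 362 and at most 0.5 times both in 419, against 19 to 54 genes for replicates 2 and 3. Parental replicate 1 had 95 genes at most 0.5 times both others, several cytokine genes among them. Results that turn on either library are given with and without it.

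SOX10 (ENSG00000100146.17, minus strand, chromosome 22, 37970686 to 37987422, GRCh38) was read first as a check of the labels. Parental libraries had 10348, 11877 and 12822, and CRT34 DMSO libraries had 6.32, 0 and 0.974 (adjusted p = 5.17e-13). The CRT34 DMSO mean was 0.0208% of the parental mean, so the line off inhibitors had almost no SOX10 messenger RNA.

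Across all genes tested, 3035 rose in CRT34 DMSO (15.7%) and 1418 fell (7.35%). These shares are the background for every list below. The lists were chosen with earlier results of these data known, so a count beyond these shares is a description and not a test. The median change was 0.03 on the log2 scale. Of the calls, 68.2% were higher. Quantile normalization, which forces the same distribution on every library, moved the median to -0.12 and gave 2291 higher and 1996 lower calls, or 53.4% higher. In all, 8059 genes had an adjusted p of 0.05 or lower at any size of change.

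**Figure D1:**
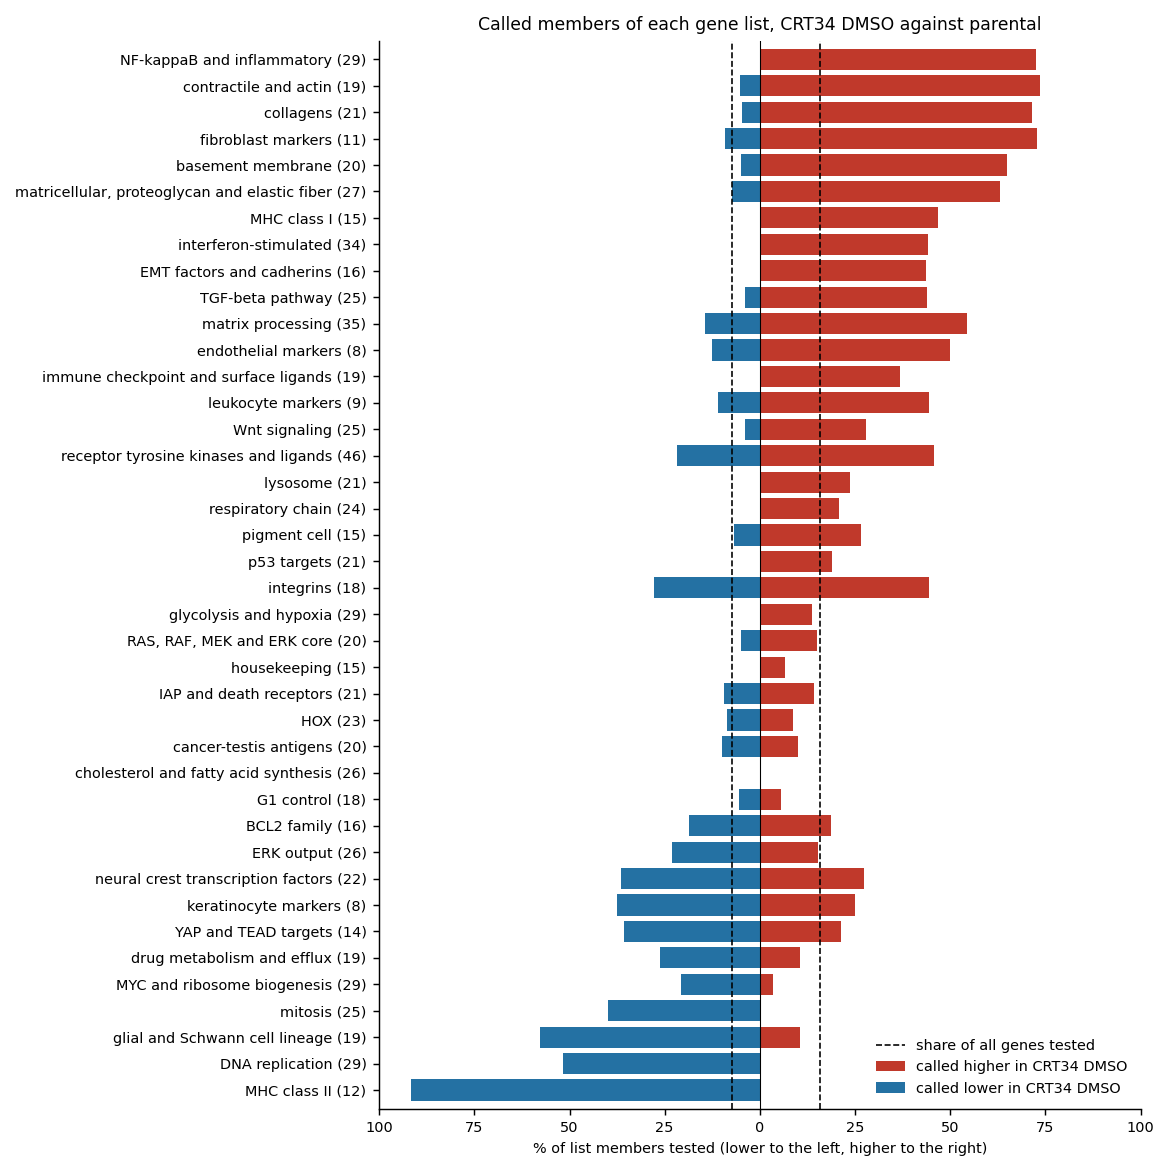
Share of the tested members of each of 40 gene lists called in CRT34 DMSO against parental, in percent, with higher calls to the right and lower calls to the left, the number tested in brackets and dashed lines at the shares of all genes (15.7% higher and 7.35% lower). MHC class II and glial lists extend furthest to the left, and contractile, fibroblast marker, NF-kappaB and collagen lists extend furthest to the right.

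The 10 protein-coding genes with the largest rises that met a floor on level were IL33, COL3A1, THY1, SERPINB2, POSTN, MYOCD, COL1A2, BDKRB2, VCAM1 and TCIM, out of 997 that met the same rule. IL33, an alarmin of the interleukin-1 family, was listed at 0 in all 3 parental libraries and at 18329, 18064 and 13557 in CRT34 DMSO (adjusted p = 1.2e-11). BDKRB2, the bradykinin B2 receptor, went from 0, 0.853 and 0 to 804, 3730.3 and 3462 (adjusted p = 8.83e-09). TCIM, a regulator of transcription, had 1.06, 4.25 and 4.58 in parental and 1760.3, 9305 and 8344 in CRT34 DMSO (adjusted p = 2.45e-08). Values of the other 7 stand with their lists below. The rule, for rises and falls alike, also required complete separation of the 6 libraries, so the lack of overlap in these genes is not a result. The 10 with the largest falls, out of 551, were SOX10, MGAM2, MUC5B, HLA-DRB1, DNAH9, TFAP2B, HAPLN1, CD96, HLA-DRA and TMPRSS5. MUC5B, a gel-forming mucin, fell from 1559, 1252 and 1179 to 0 in all 3 libraries (adjusted p = 1.52e-12). DNAH9, an axonemal dynein heavy chain, fell from 618, 700.4 and 671 to 0 (adjusted p = 7.72e-08), and MGAM2, a maltase-glucoamylase relative, from 2047, 1914 and 1077 to 0 (adjusted p = 1.16e-09). HAPLN1, which links hyaluronan to proteoglycans, had 3761, 3646 and 2906 in parental and 12.1, 12.4 and 0 in CRT34 DMSO (adjusted p = 4.72e-08). For the receptor CD96 the levels were 10800.4, 12751 and 11722 and 27.8, 23.6 and 11.1 (adjusted p = 3.17e-10), and for the membrane protease TMPRSS5 672, 1039.9 and 992 and 1.02, 5.62 and 0.945 (adjusted p = 1.21e-10).

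**Figure D2:**
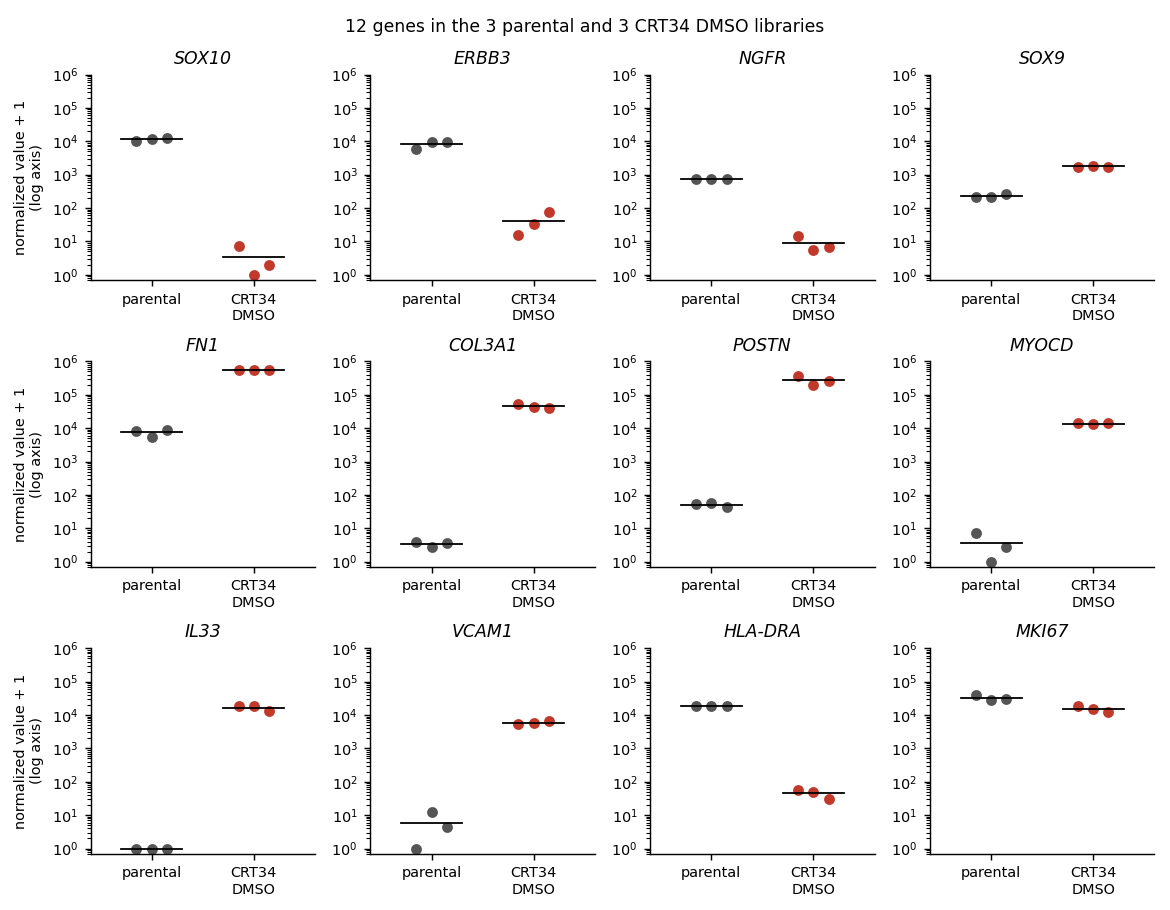
Normalized value + 1 on a log axis of 12 genes in the 3 parental and 3 CRT34 DMSO libraries, 1 point per library with a line at the group mean. SOX10, ERBB3, NGFR and HLA-DRA drop by orders of magnitude, SOX9, FN1, COL3A1, POSTN, MYOCD, IL33 and VCAM1 lie wholly above their parental points, and MKI67 shifts by far less.

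Loss of SOX10 came with a mixed pattern among the other neural crest transcription factors: 6 of 22 tested members rose and 8 fell, with a median log2 change of 0.22. SOX5 and SOX11, of the SOXD and SOXC groups, fell. SOX5 went from 8545, 11437 and 9266 to 458, 352 and 326 (log2 change -4.69, SE 0.41, adjusted p = 3.5e-08). SOX11 went from 1959, 2492 and 2643 to 58.6, 18.9 and 31.6 (log2 change -6.12, SE 0.54, adjusted p = 4.51e-08). TFAP2B, an AP-2 factor of the neural crest, fell from 479.9, 809 and 737 to 0 in every library (adjusted p = 1.52e-12), whereas its relative TFAP2A rose from 384, 338 and 321 to 808, 993 and 721 (log2 change 1.26, SE 0.20, adjusted p = 5.85e-05). A pair of SOX genes went the other way. SOX9, which directs cartilage and other mesenchymal fates, rose from 213, 214 and 261 to 1731, 1795 and 1743 (log2 change 2.94, SE 0.23, adjusted p = 1.18e-08), and SOX4 from 609.9, 778 and 834 to 5103, 7770.4 and 6503 (log2 change 3.11, SE 0.26, adjusted p = 2.2e-08). The homeobox gene MSX2 also rose (249.7, 219 and 225 to 812, 2067 and 1679.95, log2 change 2.61, SE 0.32, adjusted p = 3.23e-06), and LEF1, a nuclear partner of beta-catenin, fell (1594, 1706 and 1976 to 412, 185 and 246, log2 change -2.72, SE 0.29, adjusted p = 6.34e-07). PAX3, TWIST1 and ZIC1 did not pass the test, with log2 changes of 0.25, 0.22 and -0.01.

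The glial and Schwann cell list moved down: 2 of 19 tested members rose and 11 fell, with a median log2 change of -1.82. The count that rose was 1 without CRT34 DMSO replicate 2 or 3 or parental replicate 1 or 3. ERBB3, the neuregulin receptor that Schwann cells depend on, fell from 5993, 9355 and 9197 to 14.8, 31.4 and 77.01 (log2 change -7.87, SE 0.51, adjusted p = 6.75e-10). The neurotrophin receptor NGFR fell from 760.4, 757 and 724 to 13.4, 4.72 and 5.64 (adjusted p = 3.02e-10), and the calcium-binding protein S100B from 365, 683 and 446 to 1.62, 6.77 and 7.88 (adjusted p = 1.62e-08). These genes were named because the study discusses them, for a low p or after their values were seen. It is therefore no separate result that their groups did not overlap. PMP22, a myelin protein, kept more of its level, at 12033, 11458 and 10378 in parental and 1916, 2441 and 2329 in CRT34 DMSO (log2 change -2.35, SE 0.16, adjusted p = 1.42e-09), and the fatty acid carrier FABP7 kept almost none (207, 272 and 194 to 0, 0.959 and 0, adjusted p = 1.89e-10). GFRA1, a co-receptor for GDNF, rose from 71.4, 35.5 and 44.04 to 2404, 575 and 895 (log2 change 4.45, SE 0.57, adjusted p = 5.4e-06).

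Some of the pigment cell genes were low in both groups. Of 22 listed, TYR, DCT, MLANA, OCA2, SLC24A5, TRPM1 and KIT were below the filter, and of the 15 tested 4 rose and 1 fell, with a median log2 change of 0.18. The summed level of the list was 25556 to 29887 in parental and 20348 to 26187 in CRT34 DMSO. TYR, MLANA and TRPM1 were at 0 in all 3 CRT34 DMSO libraries, so neither group had the defining melanocyte markers at a level to check the label. MITF, the master regulator of melanocytes, had 1502, 1448 and 1389.96 in parental and 2779, 1936 and 1806 in CRT34 DMSO (log2 change 0.56, SE 0.31, adjusted p = 0.159), with a 95% interval of the change of -0.09 to 1.21. TYRP1, a melanosome enzyme, rose from 52.8, 18.4 and 13.2 to 154, 684 and 321 (log2 change 3.72, SE 0.57, adjusted p = 4.1e-05). APOE, a lipid carrier and also a melanocyte gene, rose from 13.4, 19.9 and 17.9 to 679.9, 372 and 465 (log2 change 4.78, SE 0.55, adjusted p = 1.35e-06). PMEL was the member that fell, and the lower count was 0 without CRT34 DMSO replicate 1 or 2 or parental replicate 1 or 2 and 2 without CRT34 DMSO replicate 3 or parental replicate 3.

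Among EMT factors and cadherins, 7 of 16 tested members rose and 0 fell, with a median log2 change of 0.88. SNAI2, the repressor known as Slug, rose from 37.8, 40.3 and 31.5 to 1173, 1630.02 and 1725 (log2 change 5.32, SE 0.23, adjusted p = 3.07e-12). CDH11, the mesenchymal cadherin of osteoblasts and fibroblasts, rose from 7.41, 37.4 and 101 to 1912, 3325 and 2648 (log2 change 6.32, SE 0.54, adjusted p = 3.07e-08), and the E-box factor TCF4 from 924, 1317 and 776 to 4461, 7141 and 4718 (log2 change 2.44, SE 0.35, adjusted p = 1.84e-05). Several better known members did not pass. ZEB1 had 3564, 3250.004 and 3065 and 3167, 2566 and 2647 (log2 change -0.24, SE 0.32, adjusted p = 0.583, 95% interval -0.92 to 0.44). CDH2, N-cadherin, had 10478, 10462 and 10358 and 16944, 9198 and 9571 (log2 change 0.13, SE 0.25, adjusted p = 0.702, 95% interval -0.38 to 0.65). E-cadherin, CDH1, was at 0 in the CRT34 DMSO libraries.

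Extracellular matrix genes were read in 4 lists. Of 21 collagen genes tested, 15 rose and 1 fell (median log2 change 2.75). The fibrillar collagens I and III, the scaffold of connective tissue, were near absent in parental cells and abundant in CRT34 DMSO. COL1A1 had 117, 67.7 and 56.3 in parental and 51042, 18266 and 28765 in CRT34 DMSO (log2 change 8.59, SE 0.52, adjusted p = 2.66e-10). COL1A2 had 22.5, 20.02 and 9.96 and 72855, 76689 and 72609.6 (log2 change 12.04, SE 0.65, adjusted p = 5.65e-11). COL3A1 had 2.83, 1.71 and 2.5 and 53850.04, 42088 and 40823 (adjusted p = 8.01e-16). COL1A1 was highest in CRT34 DMSO replicate 1, while COL1A2 varied little among the 3 libraries. Collagen VI, which forms beaded filaments around cells, rose in each of its 3 chains listed. Its largest chain COL6A3 rose from 2267, 1527 and 2097 to 326201, 223797 and 232821 (log2 change 7.05, SE 0.27, adjusted p = 5.17e-13). COL5A2, a chain of collagen V, was already abundant in parental cells and rose from 14207, 13865 and 12429.8 to 71806, 70566 and 72982 (log2 change 2.41, SE 0.17, adjusted p = 1.51e-09). COL13A1, a transmembrane collagen, was the member that fell, from 741, 857 and 693 to 531, 272 and 279 (log2 change -1.15, SE 0.32, adjusted p = 0.0081), and its call was lost without CRT34 DMSO replicate 2 (log2 change -0.98, adjusted p = 0.043) and without CRT34 DMSO replicate 3 (log2 change -0.998, adjusted p = 0.0419). In a bulk culture, fewer cells of a type and less RNA per cell cannot be told apart.

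Basement membrane genes rose in 13 of 20 and fell in 1 (median log2 change 1.40). The lower count, which is LAMA2, was 0 without CRT34 DMSO replicate 1 or 3 or parental replicate 2 and 2 without CRT34 DMSO replicate 2. COL4A1, the main basement membrane collagen, rose from 13289, 14701 and 17579 to 236477, 133674 and 157149.99 (log2 change 3.50, SE 0.22, adjusted p = 3.8e-10). The linker NID2 rose from 83.99, 143 and 112 to 2379, 2125 and 2269 (log2 change 4.34, SE 0.34, adjusted p = 9.17e-09), and the laminin chain LAMA4 from 6172, 8049 and 8048 to 32605, 40993 and 43693 (log2 change 2.40, SE 0.18, adjusted p = 5.83e-09). The heparan sulfate proteoglycan HSPG2 did not pass, at 2057, 2678 and 3207 and 3835, 1873 and 1969 (log2 change -0.11, SE 0.29, adjusted p = 0.795).

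Of 27 matricellular, proteoglycan and elastic fiber genes, 17 rose and 2 fell (median log2 change 2.08). FN1, fibronectin, rose from 8314, 5365 and 8833 to 549511, 556079.9 and 549027 (log2 change 6.23, SE 0.32, adjusted p = 2.6e-11). Its 3 CRT34 DMSO libraries were nearly equal. POSTN, periostin, rose from 53.01, 55.1 and 42.6 to 353075, 197292 and 263545 (log2 change 12.34, SE 0.31, adjusted p = 1.09e-15). The small proteoglycan DCN, decorin, rose from 72.1, 85.4 and 59.997 to 14639, 13693 and 10944 (log2 change 7.48, SE 0.52, adjusted p = 1.64e-09), and the matricellular THBS2 from 40.4, 56.9 and 35.2 to 7293, 3374 and 3777 (log2 change 6.68, SE 0.37, adjusted p = 7.99e-11). FMOD, fibromodulin, had 2.08, 0 and 1.99 in parental and 2008, 1267 and 1348 in CRT34 DMSO (adjusted p = 1.94e-11). SRPX fell (7968, 8926 and 9816 to 1248, 2358 and 2411, log2 change -2.21, SE 0.25, adjusted p = 9.29e-07). The other member that fell was THBS1, thrombospondin 1, with 146686, 95935 and 81443 in parental and 117568, 18287 and 41888 in CRT34 DMSO (log2 change -1.22, SE 0.46, adjusted p = 0.0414). Replicate 1 of CRT34 DMSO overlapped the parental range there, and the call was lost without CRT34 DMSO replicate 2 (log2 change -0.58, adjusted p = 0.296), without CRT34 DMSO replicate 3 (log2 change -1.17, adjusted p = 0.0997), without parental replicate 1 (log2 change -0.98, adjusted p = 0.159) and without parental replicate 2 (log2 change -1.29, adjusted p = 0.0696).

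Enzymes that process matrix were also mostly higher: 19 of 35 tested rose and 5 fell (median log2 change 1.37). The lysyl oxidase LOXL2, which crosslinks collagen, rose from 6014, 5459 and 6336 to 36151, 25999 and 29038 (log2 change 2.35, SE 0.18, adjusted p = 7.71e-09). SERPINH1, the collagen chaperone of the endoplasmic reticulum, rose from 8569.95, 8675 and 8784 to 45835, 32136 and 40869 (log2 change 2.175, SE 0.19, adjusted p = 3e-08), and the membrane collagenase MMP14 from 2280.1, 2565 and 2817 to 16623, 15665 and 21386 (log2 change 2.80, SE 0.23, adjusted p = 1.43e-08). Its inhibitor TIMP1 rose as well, from 8222, 8209.7 and 9198 to 62635, 59729.6 and 38143 (log2 change 2.61, SE 0.21, adjusted p = 1.22e-08). SERPINB2, an inhibitor of urokinase, had 1.05, 4.2 and 24.1 in parental and 39273, 25216 and 40562 in CRT34 DMSO (adjusted p = 5.28e-09). The protease ADAMTS5, which cuts aggrecan, had 9.26, 2.62 and 2.82 and 340.5, 2675 and 1548 (adjusted p = 5.04e-09). Falls were seen in the relatives LOXL3 (8308, 7187 and 8197 to 3413, 1780.4 and 2441, log2 change -1.68, SE 0.20, adjusted p = 2.29e-06) and LOXL4 (1424, 3813 and 2976 to 351, 331 and 464, log2 change -2.74, SE 0.47, adjusted p = 0.000122), so members of the lysyl oxidase family went both ways.

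Integrins, the receptors for these proteins, split: 8 of 18 rose and 5 fell (median log2 change -0.15). Chains of the collagen receptors were among those that rose. ITGA11 went from 56.6, 77.003 and 17.98 to 5593, 7466 and 6769 (log2 change 7.22, SE 0.36, adjusted p = 1.86e-11), ITGA1 from 5455, 4684 and 6458 to 36008, 61466 and 62807 (log2 change 3.24, SE 0.43, adjusted p = 8.7e-06), and the shared beta chain ITGB1 from 35729, 31226 and 31916 to 143540.4, 113281 and 118633 (log2 change 1.92, SE 0.17, adjusted p = 4.09e-08). ITGA5, the fibronectin receptor chain, rose from 10060.4, 10527 and 11644 to 39681, 32795 and 38173 (log2 change 1.78, SE 0.16, adjusted p = 5.61e-08). Falls included the laminin receptor chain ITGA6 (27972, 27774 and 25579.7 to 5707, 4087 and 3811, log2 change -2.60, SE 0.23, adjusted p = 4.88e-08) and ITGB3 (7901, 15417 and 15552 to 3583, 2942 and 4298, log2 change -1.79, SE 0.28, adjusted p = 5.23e-05). The median of the list was on the other side of 0 from the larger count.

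Markers of other cell types were read beside these results, since the line came from a tumor in a mouse and the reads had been aligned to the human genome. Of 11 fibroblast markers tested, 8 rose and 1 fell (median log2 change 5.63), and their summed level went from 558 to 684 in parental to 187433 to 246106 in CRT34 DMSO. COL1A1, COL1A2, COL3A1, DCN and LUM belong to this list and to the matrix lists. The 3 others that rose were THY1 (14.8, 0.929 and 2.33 to 40224, 24903 and 30311, adjusted p = 3.3e-11), FAP (48.5, 53.7 and 52.9 to 2174, 3029 and 2694, log2 change 5.63, SE 0.23, adjusted p = 1.33e-12) and PDGFRA (72.2, 84.6 and 51.7 to 971, 1649.7 and 1326, log2 change 4.22, SE 0.43, adjusted p = 3.45e-07). PI16 and MFAP5, also fibroblast markers, had at most 8.87 in CRT34 DMSO, and C7 fell. The part of other cells in the matrix results was not tested.

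Leukocyte markers gave 4 higher and 1 lower of 9 tested, with summed levels of 1605 to 1724 in parental and 4126 to 7453 in CRT34 DMSO. CD68, a lysosomal protein, made up most of the sum (1286, 1226 and 1156 to 3174, 5940.4 and 6154, log2 change 1.997, SE 0.24, adjusted p = 2.61e-06). CD4 went from 0.714, 2.12 and 0 to 673, 580.1 and 784 (adjusted p = 2.35e-11) and CSF1R from 10.9, 7.99 and 17.8 to 242, 435 and 475 (log2 change 4.87, SE 0.60, adjusted p = 3.1e-06), while PTPRC, the pan-leukocyte marker, had 0, 0 and 2.55 in CRT34 DMSO. CD3E, FCGR3A, NKG7 and GNLY were at 0 there. Endothelial markers gave 4 higher and 1 lower of 8, with sums of 983 to 1342 and 2612 to 3478. TEK, the angiopoietin receptor, rose from 50.7, 34.2 and 23.6 to 1722, 1477 and 1941 (log2 change 5.58, SE 0.33, adjusted p = 2e-10), and CLDN5 was at 0. The member that fell was VWF, von Willebrand factor, whose CRT34 DMSO levels are given further on. Keratinocyte markers gave 2 higher and 3 lower of 8, with sums of 2244 to 2323 and 1827 to 2092, and KRT14 fell from 299.96, 364 and 335 to 0 in every library (adjusted p = 1.68e-10).

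Contractile genes of smooth muscle rose together with the matrix. Of 19 tested, 14 rose and 1 fell (median log2 change 1.96). MYOCD, myocardin, the coactivator of SRF that switches on smooth muscle genes, had 6.24, 0 and 1.84 in parental and 14049, 13323 and 13782 in CRT34 DMSO (adjusted p = 2.68e-11). The myosin light chain MYL9 rose from 163, 149.8 and 155 to 30958, 14167 and 23089 (log2 change 7.11, SE 0.25, adjusted p = 1.58e-13). TAGLN, transgelin, rose from 304, 137 and 159.98 to 97876, 20522 and 36909 (log2 change 7.80, SE 0.62, adjusted p = 1.21e-08), and the actin ACTA2 from 169.97, 184 and 205 to 17261, 4444 and 13544 (log2 change 5.76, SE 0.41, adjusted p = 2.3e-09). CRT34 DMSO replicate 2 was the lowest of its group for MYL9, TAGLN and ACTA2, yet far above every parental library. VCL, vinculin of the focal adhesions, rose from 10772, 9768 and 9657 to 34933, 35698 and 46133 (log2 change 1.94, SE 0.13, adjusted p = 1.27e-09). SRF itself did not pass (2825, 2713 and 2652 and 3566, 2598 and 2743, log2 change 0.11, SE 0.14, adjusted p = 0.571, 95% interval -0.19 to 0.40). The member that fell, DES, was at most 12.8 in any of the 6 libraries, and the lower count was 0 without CRT34 DMSO replicate 1 or 2 or parental replicate 1 or 3.

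In the TGF-beta pathway 11 of 25 tested members rose and 1 fell (median log2 change 0.90). The fall was FST, the activin inhibitor follistatin, and that count was 0 without CRT34 DMSO replicate 2 or 3 or parental replicate 1. TGFB2, a ligand, rose from 289, 181 and 138 to 8419, 8760.5 and 7209 (log2 change 5.38, SE 0.40, adjusted p = 4.53e-09). The receptor TGFBR2 rose from 3081, 3134 and 3409.9 to 12945, 20715 and 18781 (log2 change 2.42, SE 0.23, adjusted p = 1.09e-07), and the ligand BMP2 from 255, 299.8 and 326 to 2762, 2917 and 2238 (log2 change 3.16, SE 0.31, adjusted p = 2.08e-07). SMAD7, a feedback inhibitor, rose from 929, 858 and 833 to 1844, 2099 and 1919.7 (log2 change 1.16, SE 0.16, adjusted p = 1.17e-05).

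Receptor tyrosine kinases and their ligands had 21 of 46 higher and 10 lower (median log2 change 0.94). PDGFRB, a receptor of mesenchymal cells, rose from 449, 597 and 621 to 2525, 3562 and 3311 (log2 change 2.49, SE 0.37, adjusted p = 3e-05), and EGFR from 3069, 2517 and 2368 to 6530.1, 7288 and 6539.9 (log2 change 1.36, SE 0.20, adjusted p = 3.26e-05). Among ligands, FGF2 rose from 2949, 2752 and 2521 to 30381, 29541 and 30741 (log2 change 3.47, SE 0.28, adjusted p = 1.62e-08). HGF, the ligand of MET, had 0, 1.89 and 2.85 in parental and 602, 999 and 784 in CRT34 DMSO (adjusted p = 4.1e-10), and MET itself had 13154, 10843 and 10460.04 and 6215, 7841 and 7399 (log2 change -0.68, SE 0.20, adjusted p = 0.0106). IGFBP7, which binds insulin-like growth factors, rose from 587, 700.2 and 712 to 16854, 16633 and 16513 (log2 change 4.65, SE 0.19, adjusted p = 1.11e-12). AXL, a receptor often high in invasive melanoma cells, fell from 25734, 18435 and 16724 to 14495, 6450.1 and 6188 (log2 change -1.26, SE 0.30, adjusted p = 0.00272). Its lowest parental library was still above the highest CRT34 DMSO library, which was replicate 1. The ephrin receptor EPHA3 fell from 6999.9, 7046 and 6931 to 1294, 1554 and 1363 (log2 change -2.32, SE 0.29, adjusted p = 4.41e-06) and the EGFR ligand TGFA from 14230.005, 15303 and 18141 to 986, 4018 and 2957 (log2 change -2.80, SE 0.53, adjusted p = 0.000345).

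Of 25 Wnt genes tested, 7 rose and 1 fell (median log2 change 0.11). WNT5A, a ligand of the beta-catenin-independent branch, rose from 3139.9, 3084 and 2946 to 21939, 38345 and 33483 (log2 change 3.32, SE 0.43, adjusted p = 7.15e-06), and WNT7B from 25.3, 21.2 and 24.7 to 146, 363 and 284 (log2 change 3.33, SE 0.48, adjusted p = 2.14e-05). The decoy SFRP1 fell from 9332, 10877 and 11302 to 3561, 2012 and 1426 (log2 change -2.27, SE 0.41, adjusted p = 0.000244). The YAP and TEAD list gave 3 higher and 5 lower of 14 (median log2 change -0.32). It holds YAP1, WWTR1 and the TEAD genes themselves as well as targets, so these figures are not those of targets alone. The coactivator WWTR1, known as TAZ, fell from 46562, 48914 and 51008 to 11448, 23115 and 17865 (log2 change -1.54, SE 0.21, adjusted p = 1.01e-05), its target ANKRD1 from 2643, 1547 and 1282 to 226, 0 and 25.97 (log2 change -6.57, SE 1.37, adjusted p = 0.00085), and YAP1 had 15525, 13939.7 and 13514 and 16973, 20131 and 18074 (log2 change 0.36, SE 0.17, adjusted p = 0.0911).

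Inflammatory genes were mostly higher. Of 29 NF-kappaB and inflammatory genes tested, 21 rose and 0 fell (median log2 change 2.76), with CSF1, CSF2, CXCL6, IL1A, NFKB1, NFKBIE, RELA and TNFAIP2 not called. Since promoters of such genes can carry the decameric kappaB element, the 200 bases upstream of the annotated start were searched, on both strands, for GGG, NN, TT, N and CC in a row, one form of it, where N is any base. Of 23 listed genes whose promoter could be matched by symbol in RefSeq on GRCh38.p14, 11 held it (47.8%), against 1503 of 35116 promoters in all (4.28%). CCL2, CCL5, CSF1, CSF3, NFKBIE and RELB were not matched. The list was drawn up from genes tied to NF-kappaB and inflammation, so its excess over all promoters is no result of these data. Of 13 matched MHC class I genes, 5 held the element too (38.5%). Below are 4 promoters that hold it, with the match in capitals, so that genes with different parental levels can be seen beside the values that follow. BIRC3, from the list of IAP and death receptor genes, is not among the 11. They are VCAM1 at chr1:100719542-100719741 on the plus strand, IL6 at chr7:22727000-22727199 on the plus strand, BIRC3 at chr11:102317284-102317483 on the plus strand and TNFAIP3 at chr6:137867059-137867258 on the plus strand, each 5′ to 3′ on the strand of its gene. A match is a description of these letters and does not show that a factor was bound.
VCAM1: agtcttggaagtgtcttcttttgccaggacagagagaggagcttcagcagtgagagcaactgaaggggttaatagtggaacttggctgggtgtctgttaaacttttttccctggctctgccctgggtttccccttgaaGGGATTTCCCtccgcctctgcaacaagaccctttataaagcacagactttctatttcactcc
IL6: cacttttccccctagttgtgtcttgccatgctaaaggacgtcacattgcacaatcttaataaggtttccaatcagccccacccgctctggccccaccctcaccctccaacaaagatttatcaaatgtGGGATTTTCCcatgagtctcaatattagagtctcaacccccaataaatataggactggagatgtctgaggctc
BIRC3: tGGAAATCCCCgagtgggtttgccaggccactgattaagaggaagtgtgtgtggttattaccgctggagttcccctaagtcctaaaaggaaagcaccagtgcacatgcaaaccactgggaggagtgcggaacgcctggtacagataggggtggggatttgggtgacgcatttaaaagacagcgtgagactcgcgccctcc
TNFAIP3: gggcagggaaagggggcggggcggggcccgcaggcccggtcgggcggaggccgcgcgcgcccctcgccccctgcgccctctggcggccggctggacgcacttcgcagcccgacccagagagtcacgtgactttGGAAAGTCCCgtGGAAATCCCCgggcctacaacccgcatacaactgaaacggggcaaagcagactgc

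VCAM1, the endothelial-type adhesion molecule for leukocytes, had 0, 11.1 and 3.26 in parental and 5209, 5601 and 6579 in CRT34 DMSO (adjusted p = 1.51e-09). TNFSF15, a cytokine of the TNF family, had 2.11, 5.08 and 1.84 and 6187, 3657 and 4420.1 (adjusted p = 9.56e-11). IL1B, interleukin-1 beta, rose from 127, 161 and 98.2 to 10425, 2629 and 7212 (log2 change 5.52, SE 0.61, adjusted p = 8.19e-07), and ICAM1 from 2293, 5128 and 5823 to 21155, 23408 and 27867 (log2 change 2.55, SE 0.33, adjusted p = 6.51e-06). These 4 were named as the called members with the lowest p, so it is no separate result that their groups did not overlap. The following members were chosen after their values were seen. IL6 rose from 9.17, 51.9 and 54.8 to 1878, 855 and 2064 (log2 change 5.58, SE 0.98, adjusted p = 0.000164). PTGS2, the inducible cyclooxygenase, rose from 115, 158 and 208 to 20034, 77631 and 50738 (log2 change 8.10, SE 1.06, adjusted p = 7.11e-06). Feedback inhibitors of the pathway were higher too, TNFAIP3, known as A20, from 787, 937 and 897 to 8108, 11454 and 13855 (log2 change 3.64, SE 0.66, adjusted p = 0.000244) and NFKBIA from 1086, 1832 and 1898 to 4815, 6985 and 6596 (log2 change 1.96, SE 0.44, adjusted p = 0.00166). The subunits differed. NFKB2 rose from 2035, 3307 and 3574 to 6172, 7084 and 7546 (log2 change 1.26, SE 0.36, adjusted p = 0.00842) and RELB from 285, 447 and 474 to 901, 1151 and 1118 (log2 change 1.42, SE 0.41, adjusted p = 0.00878), while RELA had 2981, 2983 and 3226 and 4130.2, 3523 and 3993 (log2 change 0.34, SE 0.14, adjusted p = 0.0647, 95% interval 0.04 to 0.64) and NFKB1 5897, 5505 and 5722 and 5280.2, 5072 and 5473 (log2 change -0.11, SE 0.25, adjusted p = 0.742, 95% interval -0.63 to 0.40).

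Chemokine levels depended on which parental library they were set against. CXCL8, interleukin 8, had 978, 7775 and 11744 in the parental libraries and 266134, 142497 and 161205 in CRT34 DMSO (log2 change 5.35, SE 1.12, adjusted p = 0.000867). CCL2, which attracts monocytes, had 189, 2588 and 3014 and 35416, 12781 and 16654 (log2 change 4.10, SE 0.85, adjusted p = 0.000809). In both, parental replicate 1 was far below the other 2, and every CRT34 DMSO library was above all 3. Without parental replicate 1, 15 members of the list were called higher, and without CRT34 DMSO replicate 1, 19. BIRC3, an inhibitor of apoptosis whose gene NF-kappaB controls, rose from 241, 1104 and 1652 to 4648, 3107 and 4003 (log2 change 2.34, SE 0.71, adjusted p = 0.0123), and this call was lost without parental replicate 1 (log2 change 1.52, adjusted p = 0.0976). CXCL1, CXCL2 and CXCL3 are close copies of each other, so reads may have been split among them uncertainly.

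**Figure D3:**
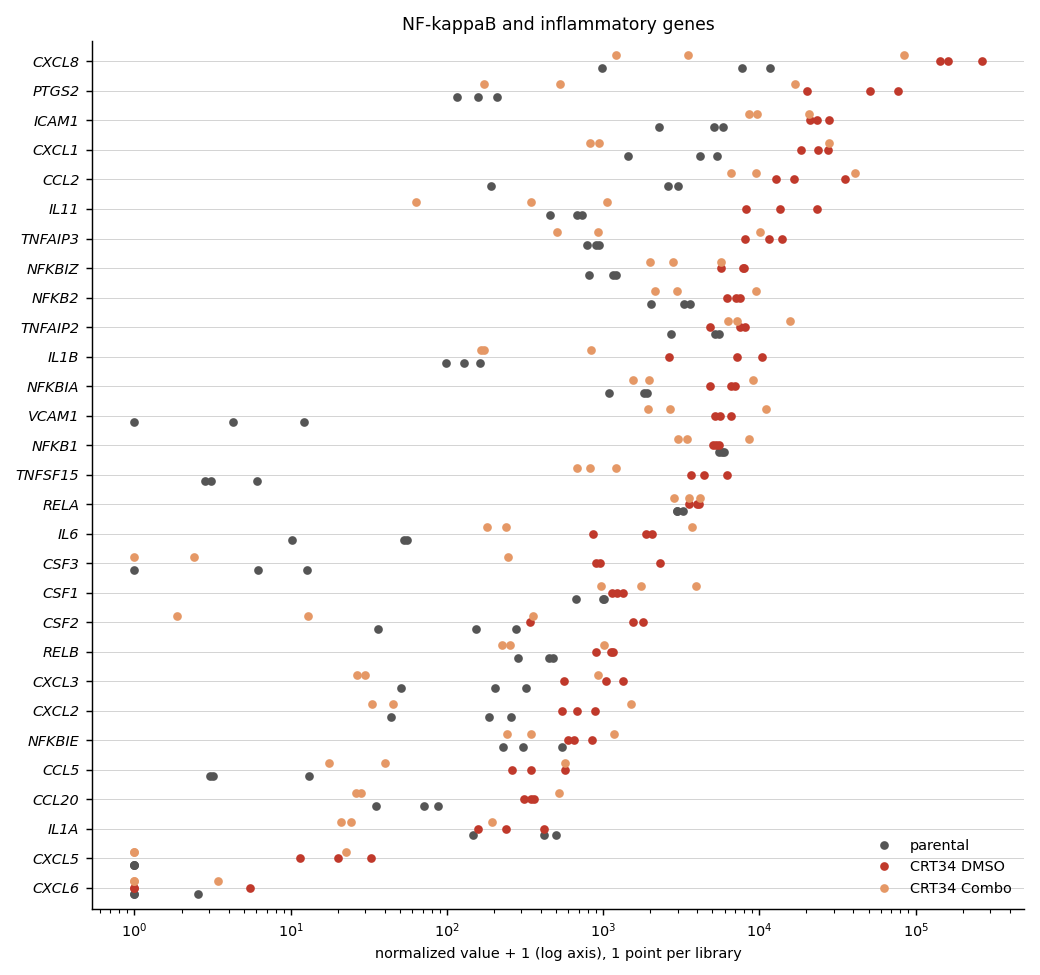
Normalized value + 1 on a log axis of the 29 NF-kappaB and inflammatory genes tested, 1 point per library, for parental, CRT34 DMSO and CRT34 Combo. In CRT34 DMSO 21 of the 29 were called above parental, and 1 CRT34 Combo library lies close to CRT34 DMSO in many rows while the other 2 lie nearer to parental.

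Of 21 IAP and death receptor genes, 3 rose and 2 fell (median log2 change 0.36). The higher count was 6 without CRT34 DMSO replicate 1, and the lower count was 0 without CRT34 DMSO replicate 2 and 1 without CRT34 DMSO replicate 1 or 3 or parental replicate 2 or 3. TNFRSF11B, the decoy receptor osteoprotegerin, rose from 451, 513 and 549 to 16179.996, 39277 and 27184 (log2 change 5.68, SE 0.53, adjusted p = 9.61e-08) and the death receptor FAS from 1579.7, 1364 and 1379 to 4093, 4714 and 4916 (log2 change 1.66, SE 0.19, adjusted p = 1.48e-06). BIRC2 and XIAP, the other IAP genes that the study discusses, were not called, at 8698, 6938 and 7501 and 13636, 10293 and 10807 for BIRC2 (log2 change 0.58, SE 0.18, adjusted p = 0.0164) and 5714, 4474 and 4734 and 6921, 6387 and 6884 for XIAP (log2 change 0.44, SE 0.27, adjusted p = 0.2). In the BCL2 family 3 of 16 rose and 3 fell (median log2 change 0.34). BCL2A1, an anti-apoptotic NF-kappaB target, had 3.22, 9.18 and 8.99 in parental and 1030.1, 451 and 591 in CRT34 DMSO (adjusted p = 1.37e-07). BMF, a BH3-only protein that promotes apoptosis, rose from 79.004, 131 and 107 to 522, 2019 and 1236 (log2 change 3.39, SE 0.48, adjusted p = 1.83e-05), and BCL2 fell from 1101, 932 and 881 to 508, 189 and 199 (log2 change -1.85, SE 0.32, adjusted p = 0.000156).

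Interferon-stimulated genes rose in 15 of 34 and fell in 0 (median log2 change 0.66), and the lower count was 1 without CRT34 DMSO replicate 2 or parental replicate 3. The rise was uneven. The membrane proteins IFITM2 (900.4, 939 and 901 to 10063, 10945 and 10379.7, log2 change 3.52, SE 0.16, adjusted p = 5.02e-12), IFITM1 (29.1, 56.1 and 40.9 to 1847, 4648 and 3555, log2 change 6.23, SE 0.40, adjusted p = 6.72e-10) and BST2 (80.5, 113 and 116 to 3296, 4149 and 5069, log2 change 5.32, SE 0.26, adjusted p = 1.86e-11) had the lowest adjusted p, along with OAS2 (261, 434 and 400.4 to 1555, 1959 and 2202, log2 change 2.40, SE 0.19, adjusted p = 9.11e-09). Typical members such as IFIT1 and MX1 did not pass, with log2 changes of 0.53 and -0.41. The IFITM genes resemble each other closely, as do HLA-B and HLA-C, so the split of reads within each family is uncertain. MHC class I genes rose in 7 of 15 and fell in 0 (median log2 change 0.93). HLA-B rose from 2757, 1896 and 2086 to 22879, 20526 and 22154 (log2 change 3.30, SE 0.22, adjusted p = 1.15e-09) and B2M, the invariant chain, from 50270.3, 45802 and 44817 to 133956, 145901 and 126594 (log2 change 1.53, SE 0.13, adjusted p = 2.68e-08). NLRC5, the class I transactivator, rose from 749, 770.1 and 906 to 2149, 2247 and 1797 (log2 change 1.35, SE 0.19, adjusted p = 1.5e-05). Immune checkpoint and surface ligand genes rose in 7 of 19 and fell in 0 (median log2 change 0.79). TNFSF4, the ligand of OX40, rose from 36.1, 25.02 and 33.3 to 4022, 2091 and 2565 (log2 change 6.44, SE 0.43, adjusted p = 1.03e-09), PDCD1LG2, the PD-L2 gene, from 36.1, 40.01 and 27.5 to 2393, 417 and 726 (log2 change 4.68, SE 0.46, adjusted p = 1.81e-07), and IDO1, which degrades tryptophan, went from 0, 3.9 and 0 to 178, 430.3 and 393 (adjusted p = 1.45e-07).

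MHC class II genes went the opposite way. Of 12 tested, 11 fell and 0 rose (median log2 change -5.87). CIITA is the class II transactivator, which acts through factors bound at a conserved promoter module that ends in an inverted CCAAT box. The letters ATTGG, on either strand, were present in the 200 bases upstream of the start of 9 of 10 matched class II genes (90%) and of 5 of 13 matched class I genes (38.5%), against 9844 of 35116 promoters (28.03%). CIITA and HLA-DRA were not matched. Since the box is part of the conserved module of class II genes, their share is no result of these data. The class II genes HLA-DRB1, HLA-DQA1 and HLA-DMA are shown because they fell, and the class I gene HLA-B because it rose with the same letters upstream, each 5′ to 3′ on its own strand with ATTGG or its complement in capitals (GRCh38.p14 from RefSeq). HLA-DRB1 is at chr6:32589849-32590048 on the minus strand, HLA-DQA1 at chr6:32637206-32637405 on the plus strand, HLA-DMA at chr6:32953098-32953297 on the minus strand and HLA-B at chr6:31357180-31357379 on the minus strand.
HLA-DRB1: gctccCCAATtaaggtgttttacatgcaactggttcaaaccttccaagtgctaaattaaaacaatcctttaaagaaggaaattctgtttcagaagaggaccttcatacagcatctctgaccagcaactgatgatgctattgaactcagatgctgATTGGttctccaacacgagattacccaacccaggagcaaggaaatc
HLA-DQA1: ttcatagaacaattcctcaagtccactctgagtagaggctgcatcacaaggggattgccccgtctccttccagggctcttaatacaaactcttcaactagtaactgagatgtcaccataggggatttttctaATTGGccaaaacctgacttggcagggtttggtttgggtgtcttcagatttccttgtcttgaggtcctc
HLA-DMA: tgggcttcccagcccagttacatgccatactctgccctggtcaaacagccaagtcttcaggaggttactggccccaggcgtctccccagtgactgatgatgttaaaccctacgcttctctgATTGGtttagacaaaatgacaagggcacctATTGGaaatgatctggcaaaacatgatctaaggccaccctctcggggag
HLA-B: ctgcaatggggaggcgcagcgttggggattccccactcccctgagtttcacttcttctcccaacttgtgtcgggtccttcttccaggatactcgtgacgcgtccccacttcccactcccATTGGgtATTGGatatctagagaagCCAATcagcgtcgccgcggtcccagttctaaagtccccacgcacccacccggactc

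HLA-DRA fell from 19192, 18513 and 18196 to 56.1, 50.1 and 30.5 (log2 change -8.69, SE 0.29, adjusted p = 7.8e-14). HLA-DRB1 had 1792, 1751 and 1827 in parental and 2.45, 0 and 2.27 in CRT34 DMSO (adjusted p = 3.3e-11), though its reads are hard to tell from those of HLA-DRB5. CIITA itself fell from 2597, 2138 and 1898 to 44.1, 14.7 and 16.5 (log2 change -6.57, SE 0.44, adjusted p = 1.23e-09). Other members kept part of their level. CD74, the invariant chain, went from 43281, 43381 and 50923 to 4052, 2534 and 2355 (log2 change -3.98, SE 0.27, adjusted p = 1.45e-09), and HLA-DPA1 from 10649, 10339 and 10005 to 1501, 1507 and 1739.6 (log2 change -2.71, SE 0.11, adjusted p = 7.94e-13). HLA-DMA, which helps to load peptides, went from 2113, 2003 and 2083 to 276, 511 and 567 (log2 change -2.26, SE 0.26, adjusted p = 1.25e-06), and HLA-DQA1 from 137, 111 and 82.8 to 0 in every library (adjusted p = 1.64e-09). HLA-DPB1 was the tested member not called, at 1502, 1816 and 1845 and 1213, 891 and 1077 (log2 change -0.70, SE 0.20, adjusted p = 0.00794). Its groups did not overlap either.

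Genes read as ERK output did not move as a group: 4 of 26 tested members rose and 6 fell, with a median log2 change of 0.19. The higher count was 2 without CRT34 DMSO replicate 2 or parental replicate 1. DUSP6, the ERK phosphatase and a standard readout of the pathway, had 7366, 8003 and 8996 in parental and 8229.8, 12614 and 13414 in CRT34 DMSO (log2 change 0.46, SE 0.27, adjusted p = 0.186, 95% interval -0.11 to 1.04). CCND1, cyclin D1, had 21644, 16455 and 17778 and 30521, 14476 and 16481 (log2 change 0.07, SE 0.49, adjusted p = 0.929, 95% interval -0.96 to 1.09). SPRY2, a Sprouty inhibitor, fell from 8103, 8683 and 9085 to 2449, 3038 and 2128 (log2 change -1.78, SE 0.22, adjusted p = 3.16e-06), ETV4, an ETS factor, from 6841, 8670.5 and 8636 to 1196, 2571 and 2521 (log2 change -2.01, SE 0.32, adjusted p = 5.95e-05), and MYC from 1380.1, 1462 and 1863 to 816, 339 and 348 (log2 change -1.76, SE 0.41, adjusted p = 0.00226). Of the AP-1 factors, FOSL2 rose from 1936, 1858 and 2055 to 5867, 5306 and 5578 (log2 change 1.52, SE 0.14, adjusted p = 8.12e-08) and FOSL1 fell from 14416, 10682 and 10185 to 7084, 3013 and 3873 (log2 change -1.42, SE 0.27, adjusted p = 0.000406). Of 20 core RAS, RAF, MEK and ERK genes, 3 rose and 1 fell (median log2 change 0.04). RRAS, a RAS relative, rose from 280.1, 342 and 331 to 1059, 1349 and 1614 (log2 change 2.06, SE 0.25, adjusted p = 2.54e-06) and the scaffold KSR1 from 443, 415 and 408 to 1937, 1322 and 1052 (log2 change 1.72, SE 0.22, adjusted p = 6.11e-06). BRAF had 2309, 2558 and 2427 and 2617, 3504 and 2738 (log2 change 0.27, SE 0.18, adjusted p = 0.253).

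Cell division genes were lower in part. DNA replication genes fell in 15 of 29 tested and rose in 0 (median log2 change -1.05), and the lower count was 9 without CRT34 DMSO replicate 2 and 27 without CRT34 DMSO replicate 1. TYMS, thymidylate synthase, fell from 15798, 13896 and 14160.3 to 7301, 4371 and 3859 (log2 change -1.55, SE 0.22, adjusted p = 1.59e-05), MCM6 of the replicative helicase from 9434, 9644 and 9398 to 5901, 3143 and 3005 (log2 change -1.31, SE 0.21, adjusted p = 6.24e-05), and GINS2 from 4024, 3315 and 3335 to 1502, 764 and 709.8 (log2 change -1.92, SE 0.32, adjusted p = 8.52e-05). In each of these CRT34 DMSO replicate 1 was the highest of its group but below every parental library. Mitosis genes fell in 10 of 25 and rose in 0 (median log2 change -0.93), with a lower count of 3 without parental replicate 1, 4 without CRT34 DMSO replicate 3 and 6 without CRT34 DMSO replicate 2 or parental replicate 2. The kinesin KIF11 fell from 21185, 18095 and 16654 to 10087, 7342 and 6908 (log2 change -1.21, SE 0.32, adjusted p = 0.00567) and CDC20, an activator of the anaphase complex, from 20838, 15739 and 16249.96 to 8947, 6428 and 7419.7 (log2 change -1.21, SE 0.35, adjusted p = 0.00933). MKI67, the proliferation marker, fell from 40794, 28396 and 30603 to 19043, 15037 and 12415 (log2 change -1.11, SE 0.41, adjusted p = 0.037), but the call was lost without CRT34 DMSO replicate 2 (log2 change -1.09, adjusted p = 0.0811), without CRT34 DMSO replicate 3 (log2 change -0.96, adjusted p = 0.123), without parental replicate 1 (log2 change -0.95, adjusted p = 0.127), without parental replicate 2 (log2 change -1.21, adjusted p = 0.0527) and without parental replicate 3 (log2 change -1.16, adjusted p = 0.0645).

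G1 control genes gave 1 higher and 1 lower of 18 (median log2 change 0.00), and the counts were 2 without CRT34 DMSO replicate 2 or 3 or parental replicate 1 for higher and 2 without parental replicate 3 and 3 without CRT34 DMSO replicate 1 for lower. CDKN1A, the cell cycle inhibitor p21, rose from 5269.8, 4922 and 5015 to 13970.003, 23590.5 and 27910.1 (log2 change 2.05, SE 0.42, adjusted p = 0.000795), and CDKN1C fell from 72.97, 153 and 124 to 5.88, 21.5 and 24.4 (log2 change -2.83, SE 0.63, adjusted p = 0.0014). CDKN1B, RB1 and CCND3 did not pass, with log2 changes of 0.20, 0.18 and 0.05 and 95% intervals of -0.23 to 0.64, -0.20 to 0.57 and -0.33 to 0.44. MYC and ribosome biogenesis genes fell in 6 of 29 and rose in 1 (median log2 change -0.75), with a lower count of 2 without CRT34 DMSO replicate 3, 3 without CRT34 DMSO replicate 2 and 13 without CRT34 DMSO replicate 1. MRTO4, a ribosome assembly factor, fell from 14265, 11499 and 10875 to 8977, 4173 and 5095 (log2 change -1.07, SE 0.26, adjusted p = 0.00279), and ODC1, the polyamine enzyme, was the member that rose (6598, 6266 and 5722 to 24532, 15987 and 15121, log2 change 1.55, SE 0.26, adjusted p = 9.39e-05). Among p53 targets 4 of 21 rose and 0 fell (median log2 change 0.34). GDF15, a stress cytokine, rose from 149, 235 and 225 to 1896, 4728 and 5939 (log2 change 4.23, SE 0.48, adjusted p = 1.1e-06) and TP53INP1 from 220.3, 278 and 246 to 803, 2494 and 1988 (log2 change 2.68, SE 0.49, adjusted p = 0.000246).

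Metabolic lists differed among themselves. Cholesterol and fatty acid synthesis had 0 higher and 0 lower of 26 (median log2 change -0.07), and the higher count was 1 without CRT34 DMSO replicate 2. Glycolysis and hypoxia had 4 higher and 0 lower of 29 (median log2 change -0.08), with a lower count of 1 without parental replicate 3 and 2 without CRT34 DMSO replicate 1. SLC16A3, the lactate exporter, rose from 276, 321 and 376 to 2952, 4571 and 4743 (log2 change 3.63, SE 0.18, adjusted p = 1.97e-11). Lysosome genes had 5 higher and 0 lower of 21 (median log2 change 0.52). The cathepsins CTSK, known for degrading bone collagen, and CTSB rose, CTSK from 60.1, 95.5 and 67.3 to 2778, 3012 and 2527 (log2 change 5.23, SE 0.21, adjusted p = 7.68e-13) and CTSB from 8376, 9835 and 8861 to 37734, 28108 and 27680.03 (log2 change 1.78, SE 0.16, adjusted p = 7.09e-08). Drug metabolism and efflux genes had 2 higher and 5 lower of 19 (median log2 change -0.05). The efflux pump ABCC2 fell from 5814, 6345 and 5341 to 714, 1155 and 1679 (log2 change -2.38, SE 0.24, adjusted p = 2.86e-07), the quinone reductase NQO1 from 62726, 74222 and 63943 to 17510.3, 25265 and 31088 (log2 change -1.48, SE 0.20, adjusted p = 1.18e-05) and the cystine importer SLC7A11 from 12556, 11678 and 9518 to 1919.9, 2524 and 2603 (log2 change -2.26, SE 0.36, adjusted p = 6.07e-05).

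Further lists mark the identity of the line or serve as a reference. Cancer-testis antigens had 2 higher and 2 lower of 20 (median log2 change 0.08). MAGEA1 rose from 318, 293 and 232 to 3608, 1632 and 1999.5 (log2 change 3.02, SE 0.49, adjusted p = 7.37e-05), and PRAME had 9271, 11903 and 10875 and 9847, 11027 and 11594 (log2 change 0.02, SE 0.12, adjusted p = 0.9). HOX genes, which record position along the body axis, had 2 higher and 2 lower of 23 (median log2 change 0.28), with a lower count of 1 without CRT34 DMSO replicate 2 or parental replicate 2 or 3 and 4 without CRT34 DMSO replicate 1. HOXA13 rose from 54.5, 89.8 and 56.97 to 173, 305 and 180.4 (log2 change 1.68, SE 0.29, adjusted p = 0.000157). Of 15 housekeeping genes 1 rose, B2M, and 0 fell (median log2 change -0.35).

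Transcripts of the mitochondrial genome made up 2.03% to 2.34% of the summed values in CRT34 DMSO and 0.987% to 1.19% in parental libraries. The share was above parental in the other groups too, at 2.085% to 2.30% in gSOX10 #2 and 1.93% to 2.71% in CRT34 Combo. It was 1.56% to 1.74% in CRT35 DMSO and 1.32% to 1.63% in gSOX10 #4. In the respiratory chain list, 5 of 24 tested members rose and 0 fell (median log2 change 0.03), and the 5 were MT-ND4, MT-ND5, MT-CYB, MT-CO1 and MT-CO2, all encoded in the mitochondrial genome. MT-CO2 rose from 37999, 41686 and 50781 to 177119, 187579 and 196589.8 (log2 change 2.11, SE 0.18, adjusted p = 2.5e-08) and MT-ND5 from 21469.7, 21735 and 26893 to 75642, 80395 and 84050.02 (log2 change 1.78, SE 0.19, adjusted p = 4.61e-07). No nuclear member that was tested was called. COX4I1, of the same complex as MT-CO2, had 22427, 21244 and 20314 and 11891, 14039 and 14144 (log2 change -0.68, SE 0.11, adjusted p = 9.5e-05), and ATP5F1A, of ATP synthase, 35653, 34769.96 and 34406 and 23322, 29120.05 and 29326 (log2 change -0.37, SE 0.12, adjusted p = 0.0216). Copies of mitochondrial genes in the nuclear genome can share reads with them. RNA quality was not tested.

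Genes were also grouped by chromosome, as a description with no test. Over 13040 genes with a mean of at least 100 the median change was -0.046. The 15 genes of the mitochondrial genome had a median of 0.941. In libraries of CRT34 Combo, CRT35 DMSO and the knockout clones their median lay 0.416 to 1.287 above the parental mean. Among the nuclear chromosomes, 13 stood lowest, at -0.349 over 234 genes. Each CRT34 DMSO library showed it, at -0.219, -0.369 and -0.399 from the parental mean, where the parental libraries had 0.050, -0.025 and -0.035. It was not particular to CRT34 off inhibitors. Chromosome 13 was at -0.367 to -0.304 in CRT34 Combo and -0.689 to -0.522 in CRT35 DMSO. The knockout clones had -0.415 to -0.310 (gSOX10 #2) and -0.668 to -0.423 (gSOX10 #4). The X chromosome was at 0.122, and every other chromosome lay between -0.172 for chromosome 21 and 0.024. COL4A1 and COL4A2, both on chromosome 13, rose against that median.

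**Figure D4:**
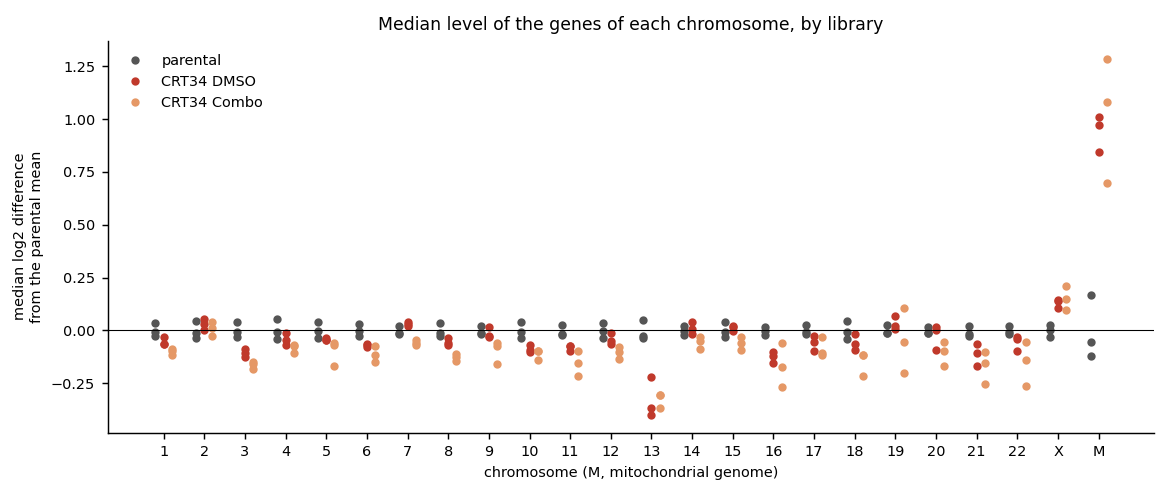
Median over genes of the log2 difference from the parental mean, by chromosome (M, the mitochondrial genome), with 1 point per library for parental, CRT34 DMSO and CRT34 Combo. The CRT34 DMSO points of chromosome 13 lie at -0.219, -0.369 and -0.399, below those of the other nuclear chromosomes, and those of M lie at 0.845 to 1.008.

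Some genes were present in one group and listed at 0 in the other. In CRT34 DMSO, 16 genes (14 protein-coding) had at least 100 in all 3 libraries and 0 in all 3 parental ones, and 13 (10 protein-coding) showed the reverse. Those present in CRT34 DMSO included IL33, TMEM204 (1002, 677 and 926), MFAP4, an elastic fiber protein (1963, 1050.3 and 581), BDKRB1, the inducible bradykinin receptor (475, 622 and 835), and the monocyte chemokine CCL7 (475, 149 and 184). KCNMB1, the smooth muscle subunit of the BK potassium channel, had 1582, 659 and 1621. Those listed at 0 in CRT34 DMSO included MGAM2, MUC5B, DNAH9, TFAP2B, KRT14 and GJB1, the connexin of Schwann cells (367, 406 and 361 in parental). These genes are named by their levels, and a 0 here means that the gene is listed at 0.

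CRT34 DMSO was next set against each other group without inhibitors, to find what differed among lines that the paper describes as SOX10-deficient. The paper shows this by western blot, and SOX10 messenger RNA of CRT35 DMSO and the knockout clones is not given here. Against CRT35 DMSO 853 genes were higher in CRT34 DMSO (4.42%) and 712 lower (3.69%). Against gSOX10 #2, 1722 were higher (8.93%) and 1696 lower (8.79%), and against gSOX10 #4, 2288 were higher (11.9%) and 1403 lower (7.27%). Quantile normalization moved the higher share of calls against gSOX10 #4 from 62.0% to 50.5%. These comparisons share the 3 CRT34 DMSO libraries. Lists gave 9 of 19 contractile genes higher than in CRT35 DMSO, 10 higher than in gSOX10 #2 and 9 higher than in gSOX10 #4. For collagens the counts of higher members were 1, 14 and 16 of 21 in the same order, and for NF-kappaB and inflammatory genes 5, 23 and 18 of 29. MHC class II genes were lower in 0, 9 and 1 of 12. DNA replication genes gave 0, 0 and 0 lower, and mitosis genes 0, 0 and 0.

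With a floor on level, 89 protein-coding genes were called higher in CRT34 DMSO than in the parental line and in each of these 3 groups with no overlap of libraries, and 18 were called lower. The floor was a mean of 10 CPM in CRT34 DMSO for higher genes. For lower genes it was 10 CPM in the parental line and in each of these 3 groups. That is stricter, so the counts cannot be set against each other, and the share of all genes is not given. The 8 with the largest smallest change in each direction are given here. KCNMB1 had 1582, 659 and 1621 in CRT34 DMSO, against 0, 0 and 0.989 in CRT35 DMSO, 3.87, 10.4 and 2.76 in gSOX10 #2 and 0, 0 and 0 in gSOX10 #4. ELN, tropoelastin, had 2.42, 8.71 and 6.66 in parental and 2498, 1758 and 1672 in CRT34 DMSO, against 26.8, 6.95 and 6.0001 in CRT35 DMSO. BMP5, a bone morphogenetic protein, had 775, 1560.4 and 1174, and no library of the parental line or of these 3 groups was above 10.4. FGF7, the keratinocyte growth factor, had 481, 1811 and 1455, with 35.001, 14.7 and 6.68 in CRT35 DMSO. A2M, the protease inhibitor alpha-2-macroglobulin, rose from 298, 147 and 226 in parental to 26913, 8048 and 5772 (log2 change 5.64, SE 0.98, adjusted p = 0.000146), and CRT35 DMSO had 57.6, 21.5 and 71.8 (log2 change 7.88, SE 0.98, adjusted p = 2.24e-05 for CRT34 DMSO against CRT35 DMSO). GPR183, an oxysterol receptor, CD4 and AADAC, a deacetylase, completed the group, at 482, 822 and 686 for GPR183, 673, 580.1 and 784 for CD4 and 1198, 733 and 799 for AADAC. CRT35 DMSO had at most 55.7 for these 3.

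Of those that were lower, CD9, a tetraspanin, fell from 4191, 4158 and 4169 to 903, 1222 and 1177 (log2 change -1.93, SE 0.15, adjusted p = 8.93e-09), with 5391, 5011 and 5148 in CRT35 DMSO (log2 change -2.25, SE 0.15, adjusted p = 1.31e-08). NPAS2, a circadian transcription factor, fell from 4348, 4421 and 5099 to 699, 1323 and 1309 (log2 change -2.11, SE 0.26, adjusted p = 3.1e-06), and PIR, an iron-binding nuclear protein, from 2561, 3938 and 3232 to 357, 544 and 771 (log2 change -2.59, SE 0.23, adjusted p = 5.28e-08). PCOLCE2, an enhancer of procollagen processing, fell from 1185, 1327 and 1177 to 274, 102 and 243 (log2 change -2.69, SE 0.29, adjusted p = 7.07e-07). AKR1C2, an aldo-keto reductase, fell from 598, 1010.2 and 896 to 72.98, 483 and 192 (log2 change -2.10, SE 0.44, adjusted p = 0.000915), while CRT35 DMSO had 2149.7, 1675 and 1976, and near-identical AKR1C copies may share its reads. PLCE1, TRHDE and ZFPM2 fell by 2.19, 1.69 and 1.56 on the log2 scale against parental. COL4A1 also separated the tolerant lines, with 236477, 133674 and 157149.99 in CRT34 DMSO and 15.8, 13.8 and 15.5 in CRT35 DMSO (log2 change 13.38, SE 0.22, adjusted p = 9.61e-19).

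**Figure D5:**
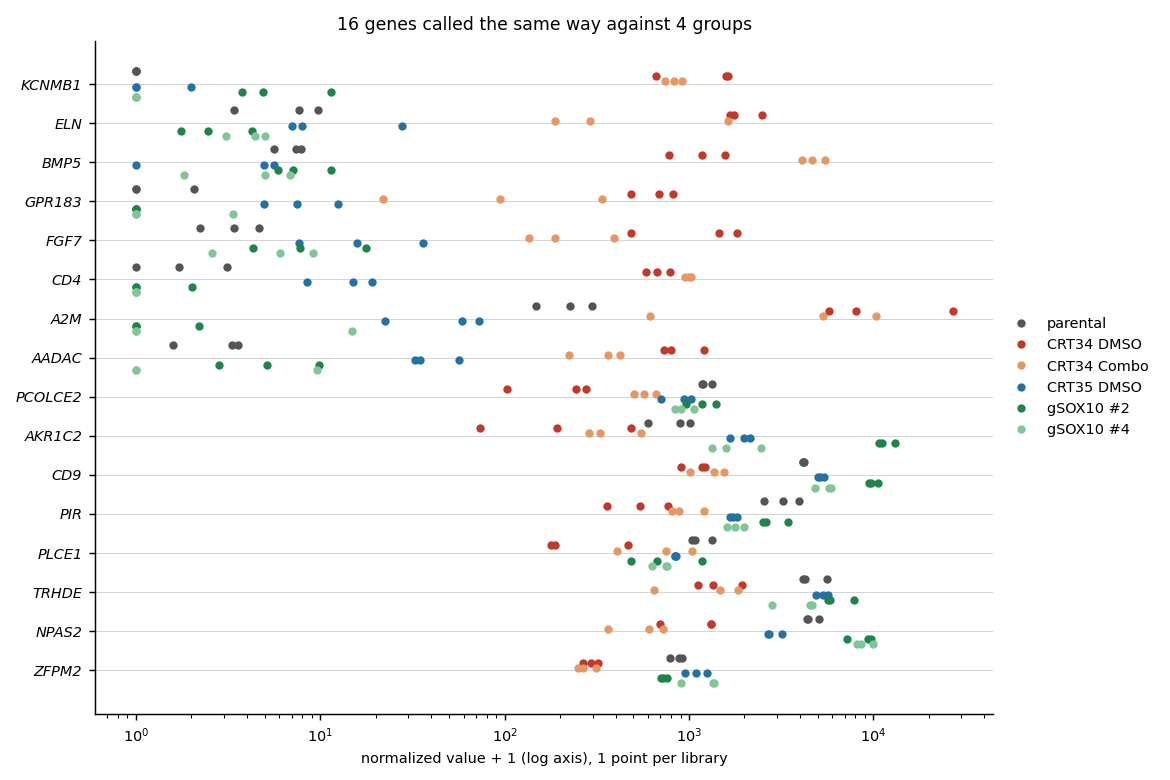
Normalized value + 1 on a log axis of the 16 genes called the same way against the parental line, CRT35 DMSO, gSOX10 #2 and gSOX10 #4, 1 point per library, with CRT34 Combo added. The upper genes have CRT34 DMSO to the right of those 4 groups and the lower genes have it to the left, and CRT34 Combo lies on either side of CRT34 DMSO.

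The last comparison asked what differed within CRT34 between cells off and on the inhibitors. In DMSO 436 genes were higher than in Combo (2.26%) and 547 lower (2.84%). With only the 6 libraries of the comparison in the fit, these counts were 29 and 7. Of 26 ERK output genes, 10 were higher off inhibitors and 0 lower. DUSP6 had 8229.8, 12614 and 13414 in DMSO and 1751, 1931 and 2173 in Combo (log2 change 2.52, SE 0.27, adjusted p = 2.67e-05). SPRY4 had 3103, 5512 and 4185 and 955, 1217 and 1089 (log2 change 1.94, SE 0.24, adjusted p = 0.000138), and the 2 groups did not overlap for either gene. NF-kappaB and inflammatory genes were higher off inhibitors in 12 of 29 and lower in 0. Here CRT34 Combo replicate 3 lay near the DMSO libraries. CXCL8 had 1203, 3476 and 84573 in Combo, and IL6 had 179, 239 and 3714, while DUSP6 in replicate 3 was as low as in the other 2. IL33 had 18329, 18064 and 13557 in DMSO and 224, 141 and 350.4 in Combo (log2 change 6.20, SE 0.67, adjusted p = 2.67e-05). IL11, a cytokine of the IL-6 family, had 8160.5, 23319 and 13504 and 62.1, 344 and 1063 (log2 change 5.59, SE 0.86, adjusted p = 0.00058). Genes higher on the inhibitors included the carboxypeptidase CPA4 (6173, 2038 and 4397 in DMSO, 142204, 100805 and 19300.1 in Combo, log2 change -4.10, SE 0.60, adjusted p = 0.000429), the netrin NTN4 (523, 230.4 and 391 and 3664, 4582 and 877, log2 change -2.76, SE 0.42, adjusted p = 0.000576) and IL18 (17.3, 112 and 95.1 and 2292, 1393 and 330.4, log2 change -4.13, SE 0.64, adjusted p = 0.000662). CDH10 and SEMA3E were also higher on inhibitors, and CSF3, MMP9 and LRRC38 higher off them, though MMP9 lost this call without CRT34 Combo replicate 1 (log2 change 5.35, adjusted p = 0.0948), without CRT34 Combo replicate 2 (log2 change 6.02, adjusted p = 0.0956) and without CRT34 DMSO replicate 3 (log2 change 6.64, adjusted p = 0.0641). With only the 6 libraries of the comparison in the fit, CSF3, MMP9, IL11, LRRC38, IL18, CPA4, CDH10, NTN4 and SEMA3E all lost their calls, and IL33 kept its own. Collagens were higher off inhibitors in 6 of 21 and contractile genes in 0 of 19, and MYOCD had 10056, 10493 and 13067 in Combo. SOX10 was at 0 in all 3 Combo libraries.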

How the data were processed

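Messenger RNA was sequenced in 21 A375-derived libraries, 3 in each of 7 groups. Per the labels, reads were aligned with STAR 2.6.1a and quantified with RSEM on GRCh38, with DESeq2 and Picard also named by the submitters' processing notes. The deposited values have the unit of signal: RSEM gene counts divided by the authors' size factors, with 1 value per gene and library. The scaling is inferred from the values, and a further factor per gene and library may apply: low values were not whole multiples of one step, so whole reads could not be recovered, depths are approximate and count tests were not used. A median ratio of the libraries to their geometric mean of 1.01 in each library showed the scaling. Whether counting used strand is not given in the sources used here, and labels and methods name different library kits.

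Of 58870 genes, 58472 matched GENCODE version 44 identifiers, and the 19290 that reached 10 in 3 or more libraries were tested. Values were analyzed as log2(value + 1) with limma 3.58.1 (R 4.3.3), with 1 mean per group over all 21 libraries (14 residual degrees of freedom), trended moderation and Benjamini-Hochberg adjustment within each comparison. Fits were tested on simulated data. Intervals of a change cover 95%.

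Members and the 40 gene lists were chosen with earlier results of these data known. Named genes were SOX10, a panel the study discusses, the largest changes at 10 CPM or more of the library total with separated libraries (10 each way against parental, 8 against the 4 groups without inhibitors, 5 against CRT34 Combo), and up to 4 called members per list and direction with the lowest p. List members named beyond these were chosen after their values were seen. Alternatives were a pseudocount of 10, no filter, quantile normalization, equal totals, a replicate block, only the 6 compared libraries, and leaving out each library. Promoters came from RefSeq. Figures used matplotlib 3.10.9.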

Additional observations from a re-analysis of the deposited data

Results flagged for a closer look

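Some genes called against the parental line moved one way in CRT34 DMSO and the other way in another SOX10-deficient group, and differed between those groups by limma's test of the difference itself. All values are log2 changes on the log2(value + 1) scale, which for a group mean under 10 depend on the added 1. Each pair of contrasts shares the parental libraries, so the test given is CRT34 DMSO against the other group directly.

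Differences that involve the matrix, adhesion and secreted proteins come first. COL4A1, a basement membrane collagen, rose by 3.50 against parental in CRT34 DMSO and differed by 13.38 against CRT35 DMSO (-9.88 in that group against parental, adjusted p of the difference = 9.61e-19). A2M, the protease inhibitor alpha-2-macroglobulin, rose by 5.64 against parental in CRT34 DMSO and differed by 13.02 against gSOX10 #2 (-7.38 in that group against parental, adjusted p of the difference = 6.99e-09) and 12.10 against gSOX10 #4 (-6.46 in that group against parental, adjusted p of the difference = 1.63e-08). CD9, a tetraspanin, fell by 1.93 against parental in CRT34 DMSO and differed by -3.18 against gSOX10 #2 (1.25 in that group against parental, adjusted p of the difference = 1.23e-11). COL13A1, a transmembrane collagen, fell by 1.15 against parental in CRT34 DMSO and differed by -3.03 against gSOX10 #2 (1.88 in that group against parental, adjusted p of the difference = 7.56e-07) and -3.50 against gSOX10 #4 (2.36 in that group against parental, adjusted p of the difference = 9.84e-08). LAMA2, a laminin chain, fell by 1.600 against parental in CRT34 DMSO and differed by -3.90 against gSOX10 #2 (2.30 in that group against parental, adjusted p of the difference = 1.4e-05) and -3.64 against gSOX10 #4 (2.05 in that group against parental, adjusted p of the difference = 2.82e-05). MMP16, a membrane metalloprotease, fell by 1.29 against parental in CRT34 DMSO and differed by -2.50 against gSOX10 #2 (1.20 in that group against parental, adjusted p of the difference = 3.71e-07). ITGB4, a laminin receptor chain, fell by 2.34 against parental in CRT34 DMSO and differed by -5.27 against gSOX10 #2 (2.93 in that group against parental, adjusted p of the difference = 3.02e-08). F3, tissue factor, rose by 1.54 against parental in CRT34 DMSO and differed by 3.23 against gSOX10 #2 (-1.69 in that group against parental, adjusted p of the difference = 4.84e-05) and 3.61 against gSOX10 #4 (-2.07 in that group against parental, adjusted p of the difference = 1.29e-05).

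Lineage, antigen and other genes follow. AKR1C2, an aldo-keto reductase, fell by 2.10 against parental in CRT34 DMSO and differed by -3.34 against CRT35 DMSO (1.24 in that group against parental, adjusted p of the difference = 4.86e-05) and -5.94 against gSOX10 #2 (3.84 in that group against parental, adjusted p of the difference = 6.48e-09). GFRA1, a GDNF co-receptor, rose by 4.45 against parental in CRT34 DMSO and differed by 5.92 against gSOX10 #2 (-1.47 in that group against parental, adjusted p of the difference = 2.11e-07) and 6.94 against gSOX10 #4 (-2.49 in that group against parental, adjusted p of the difference = 2.03e-08). TYRP1, a melanosome enzyme, rose by 3.72 against parental in CRT34 DMSO and differed by 5.36 against gSOX10 #4 (-1.63 in that group against parental, adjusted p of the difference = 6.44e-07). MAP3K8, a kinase upstream of MEK, rose by 1.42 against parental in CRT34 DMSO and differed by 3.09 against gSOX10 #2 (-1.67 in that group against parental, adjusted p of the difference = 3.52e-06) and 3.76 against gSOX10 #4 (-2.34 in that group against parental, adjusted p of the difference = 2.55e-07). ABCC2, an efflux pump, fell by 2.38 against parental in CRT34 DMSO and differed by -3.59 against gSOX10 #2 (1.21 in that group against parental, adjusted p of the difference = 1.61e-09). MAGEA1, a cancer-testis antigen, rose by 3.02 against parental in CRT34 DMSO and differed by 6.44 against gSOX10 #2 (-3.42 in that group against parental, adjusted p of the difference = 8.28e-09) and 8.06 against gSOX10 #4 (-5.04 in that group against parental, adjusted p of the difference = 3.15e-10). MAGEB2, a cancer-testis antigen, rose by 2.42 against parental in CRT34 DMSO and differed by 3.76 against gSOX10 #2 (-1.35 in that group against parental, adjusted p of the difference = 1.09e-06). CTAG2, a cancer-testis antigen, fell by 1.70 against parental in CRT34 DMSO and differed by -9.99 against CRT35 DMSO (8.29 in that group against parental, adjusted p of the difference = 5.29e-11). CDH5, VE-cadherin, rose by 2.79 against parental in CRT34 DMSO and differed by 5.88 against gSOX10 #4 (-3.09 in that group against parental, adjusted p of the difference = 5.96e-06). VWF, von Willebrand factor, fell by 2.08 against parental in CRT34 DMSO and differed by -4.06 against gSOX10 #2 (1.98 in that group against parental, adjusted p of the difference = 1.9e-05). SFN, an epithelial 14-3-3 protein, fell by 3.65 against parental in CRT34 DMSO and differed by -4.84 against gSOX10 #2 (1.19 in that group against parental, adjusted p of the difference = 1.32e-08) and -5.62 against gSOX10 #4 (1.98 in that group against parental, adjusted p of the difference = 1.31e-09).

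The call against parental was not stable for some of them. COL13A1 lost it without CRT34 DMSO replicate 2 (log2 change -0.98, adjusted p = 0.043) and without CRT34 DMSO replicate 3 (log2 change -0.998, adjusted p = 0.0419). LAMA2 lost it without CRT34 DMSO replicate 1 (log2 change -1.48, adjusted p = 0.0573), without CRT34 DMSO replicate 3 (log2 change -1.13, adjusted p = 0.127) and without parental replicate 2 (log2 change -1.24, adjusted p = 0.106). F3 lost it without CRT34 DMSO replicate 1 (log2 change 1.07, adjusted p = 0.0973), without parental replicate 2 (log2 change 1.44, adjusted p = 0.0547) and without parental replicate 3 (log2 change 1.36, adjusted p = 0.065). COL4A1 was measured at 236477, 133674 and 157149.99 in CRT34 DMSO and 15.8, 13.8 and 15.5 in CRT35 DMSO. CTAG2 had 1.05, 0 and 0.976 in CRT34 DMSO, 2.74, 6.01 and 4.35 in parental and 1733, 1650.3 and 1500.2 in CRT35 DMSO. SFN had 7.33, 9.45 and 11.3 in CRT34 DMSO, VWF 2.04, 2.36 and 1.13 and A2M in gSOX10 #2 0, 0 and 1.19. The genes were taken from those named or listed, so they are not a survey of all genes.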

How the results depend on the processing

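Against parental, the alternatives gave 2291 to 3184 genes higher and 1259 to 1996 lower, where the report has 3035 and 1418. Leaving out 1 library at a time gave 2673 to 3184 and 1259 to 1622. Against CRT35 DMSO the ranges over all alternatives were 629 to 902 and 537 to 762, against gSOX10 #2 1520 to 1817 and 1431 to 1937, and against gSOX10 #4 1895 to 2444 and 1124 to 1868. The comparison with CRT34 Combo moved most. It gave 436 higher and 547 lower, but 29 and 7 when only its 6 libraries were fitted, and 307 to 623 and 229 to 926 when 1 library was left out. The higher share of its calls was 44.4%, and 80.6% with the 6 libraries alone. Fits of 6 libraries have fewer residual degrees of freedom, and against parental such a fit gave 2873 higher and 1363 lower. The source of the drop against CRT34 Combo was not tested. At a value of 10 or more in place of 100, 83 genes were present in CRT34 DMSO and at 0 in parental, and 52 the reverse. Of the results for single named genes under the alternatives, 3742 kept their side of the threshold, 116 lost the call and 2 gained it. Among called genes 0 reversed direction. Some genes that were not called changed sign, such as CDH2, at 0.131 and at -0.153 without CRT34 DMSO replicate 1. Of the list counts, 874 stayed within 1.5 times the reported count and 86 moved beyond it.

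With the replicate number as a block, in a fit without gSOX10 #2, CRT34 DMSO had 2995 higher and 1392 lower against parental, 797 higher and 676 lower against CRT35 DMSO, 2273 higher and 1364 lower against gSOX10 #4 and 399 higher and 501 lower against CRT34 Combo. Same-numbered CRT34 DMSO and parental libraries deviated from their group means with correlations of 0.142, 0.070 and 0.048. These low values do not settle whether such libraries shared a preparation. No paired analysis was possible for gSOX10 #2 because its titles number the libraries differently. Tests that need counts were not run, since the values are not counts. Depth limits what can be said of genes listed at 0 or at a few units.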
